A study of Bos taurus with 15 samples.

Results

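The transcripts of free-standing aminoacyl-tRNA synthetases were measured by RNA-seq in bovine morulae, the compacting balls of cells that precede the blastocyst. The genes were the 7 rows AARS, CARS, GARS, HARS, SARS, TARS and YARS among the 31999 rows of the count table, chosen by symbol as cytosolic synthetases that work outside the multisynthetase complex, and all 7 passed the filter on low counts. The 15 libraries comprised 5 of haploid androgenetic morulae (titles beginning TII), which carry a sperm genome without an oocyte genome, 5 of haploid parthenogenetic morulae (titles beginning CHX), which carry an oocyte genome without a sperm genome, and 5 of diploid morulae made by intracytoplasmic sperm injection (ICSI). No allele, strain, sire, day or number of embryos per library is given in the labels, and each group was produced by its own procedure. Androgenetic and parthenogenetic morulae are both labelled haploid, so ploidy by label does not differ between them, and no measured ploidy is given in the labels. Procedure and parental origin of the genome cannot be told apart between these groups. Against ICSI morulae ploidy by label differs as well and cannot be told apart from procedure and parental origin. Polyadenylated RNA had been amplified before sequencing, and levels are given as CPM, the counts of a row relative to the library's total as scaled by TMM factors.

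An aminoacyl-tRNA synthetase joins an amino acid to its tRNAs, the step that sets which amino acid the ribosome adds for each codon. The enzymes fall into 2 structural classes with unrelated catalytic folds. Of the genes followed here TARS, SARS, HARS, GARS and AARS encode class II enzymes, while CARS and YARS encode class I enzymes. In mammals several synthetases are bound together in the multisynthetase complex and the others are free in the cytosol. Transcription of many cytosolic synthetase genes is known to rise through the factor ATF4 when amino acids run short. In the early embryo the synthetases serve the protein synthesis that accompanies the switch to the embryo's own transcripts.

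Androgenetic libraries held 21617805 to 28462700 counts in total, those of parthenogenetic morulae 25110511 to 28981601 and those of ICSI morulae 19968077 to 26948011. Androgenetic replicate 6, parthenogenetic replicate 6 and ICSI replicate 5 had the fewest rows with a count in their groups, at 13564, 16154 and 15286. Of the 31999 rows, 27607 were named by an Ensembl identifier and 777 by a symbol. Lists of genes were matched by symbol alone, so a gene without a match may still have a row. Of 7 genes known to be transcribed when the bovine embryonic genome is switched on, the homeobox genes ARGFX, DUXA and DPRX had rows under a symbol. ARGFX ran from 645 to 3923 CPM among androgenetic, from 345 to 1064 CPM among parthenogenetic and from 256 to 999.6 CPM among ICSI libraries. DUXA ran from 86.4 to 472 CPM in 4 androgenetic libraries and was 6423 CPM in androgenetic replicate 6, against 35.9 to 187 CPM in parthenogenetic and 86.6 to 634 CPM in ICSI libraries. DPRX did not pass the filter, with at most 1 count in an androgenetic, 39 in a parthenogenetic and 24 in an ICSI library, and 0 counts in androgenetic replicates 1, 5 and 6 and ICSI replicates 1, 2, 4 and 5. SOX2, a pluripotency factor, averaged 2.50 ± 2.48 CPM in androgenetic morulae, 4.84 ± 3.01 CPM in parthenogenetic morulae and 2.58 ± 1.05 CPM in ICSI morulae (SD, n = 5 each). The markers of oocytes (0 of 10), of cumulus and granulosa cells (0 of 12), of trophectoderm (0 of 12) and of primitive endoderm (0 of 4) matched no row by symbol and were not analysed here, so the part of such cells in the values was not tested. In bulk libraries fewer cells of a type and less RNA per cell cannot be told apart.

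TARS, which joins threonine to its tRNA and removes serine joined by mistake, was lower in androgenetic morulae than in both other groups. Its level was 57.5, 34.7, 45.1, 39.1 and 29.2 CPM in androgenetic replicates 1, 2, 4, 5 and 6. The parthenogenetic replicates 1, 2, 3, 5 and 6 had 159.0, 77.6, 173.6, 141.6 and 66.9 CPM, and ICSI replicates 1 to 5 had 148.7, 122.3, 115.5, 131.5 and 81.9 CPM. Every androgenetic library thus lay below every library of the other groups, and the parthenogenetic and ICSI ranges overlapped.

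By the quasi-likelihood test of edgeR, with Benjamini-Hochberg adjustment over 16375 rows, TARS had a log2 fold change of -1.54 ± 0.35 (SE; adjusted p = 0.0360) for androgenetic against ICSI morulae. Against parthenogenetic morulae the log2 fold change was -1.59 ± 0.35 (adjusted p = 0.0334), and both comparisons use the same androgenetic libraries. Of the 7 genes, 1 (TARS) had an adjusted p under 0.05 in either comparison. Of all rows, 1.06% were lower by that rule against ICSI (173 rows, with 288 higher; under DESeq2 size factors 139 lower and 372 higher) and 0.837% against parthenogenetic morulae. By unadjusted p, TARS stood at place 146 and place 118 among the 16375 rows. Leaving out ICSI replicate 1, 2, 3 or 4, or androgenetic replicate 1, 2 or 5, kept the log2 fold change against ICSI between -1.70 and -1.42 but took its adjusted p to between 0.0616 and 0.110 in edgeR. Against parthenogenetic morulae the call was lost without parthenogenetic replicate 1, 3 or 5, ICSI replicate 2 or 4, or androgenetic replicate 2 or 5, at -1.60 to -1.44 and an adjusted p of 0.0505 to 0.0992. It was also lost without the filter on low counts (adjusted p = 0.0569 against ICSI and 0.0596 against parthenogenetic morulae) and, against parthenogenetic morulae, with the 2 groups fitted alone (0.130).

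For the stage genes ARGFX and DUXA the log2 fold changes were positive. ARGFX had a log2 fold change of 1.49 ± 0.50 for androgenetic against ICSI morulae (SE; edgeR adjusted p = 0.100) and 1.42 ± 0.50 against parthenogenetic morulae (adjusted p = 0.131). DUXA had 2.69 ± 1.03 against ICSI (edgeR adjusted p = 0.147) and 4.02 ± 1.09 against parthenogenetic morulae (adjusted p = 0.0615). None passed the threshold, although all 4 had an unadjusted p under 0.05, and androgenetic replicate 6 was the highest of all 15 libraries for both. Without androgenetic replicate 6 TARS had -1.35 ± 0.34 against ICSI (edgeR adjusted p = 0.0394) and -1.39 ± 0.34 against parthenogenetic morulae (adjusted p = 0.0454). ARGFX still ran from 645 to 1743 CPM in the remaining androgenetic libraries. It ran from 345 to 1064 CPM in parthenogenetic and from 256 to 999.6 CPM in ICSI libraries. The part of ARGFX, DUXA or stage in the level of TARS was not tested.

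**Figure D1:**
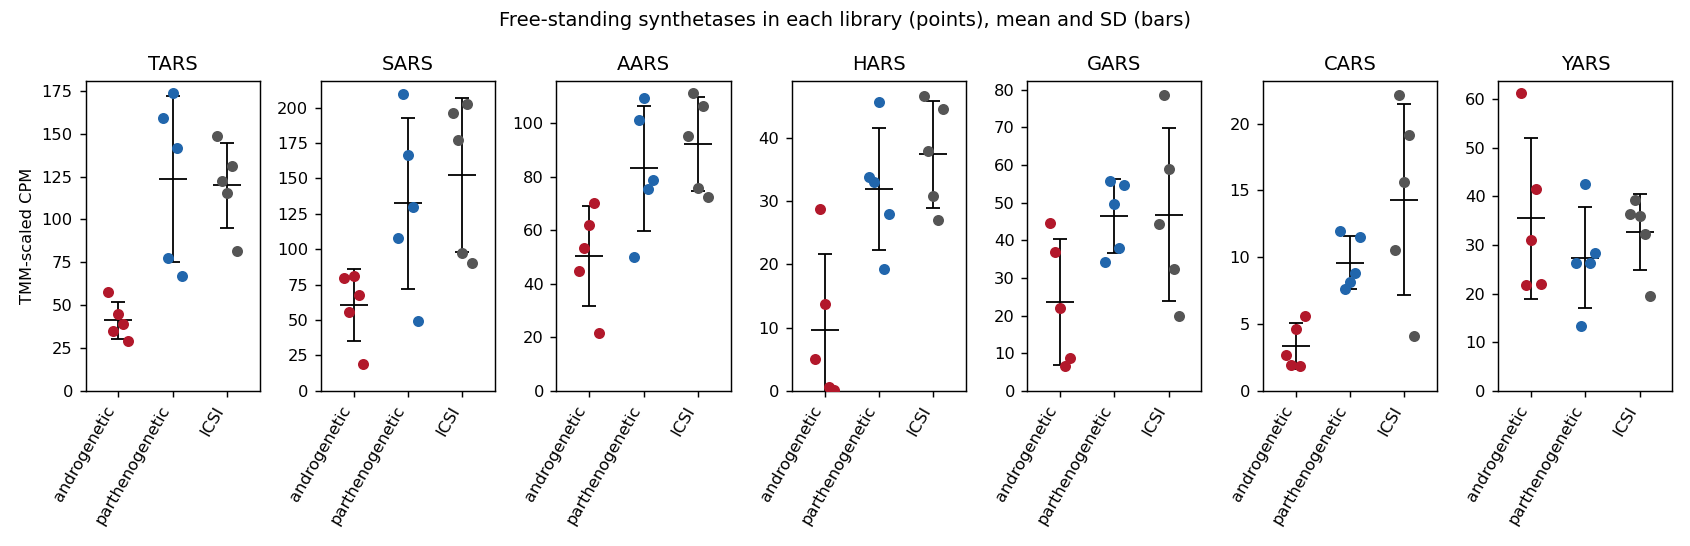
TMM-scaled CPM of each gene in each library; points are libraries, the wide bar is the mean and the whiskers are the SD of 5 libraries (cut at 0 for HARS). The androgenetic points of TARS lie between 29.2 and 57.5 CPM, below all other points of that panel, whereas those of YARS lie among the rest.

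SARS joins serine to its tRNAs, including the tRNA on which selenocysteine is made. It had 79.9, 55.4, 81.0, 67.5 and 19.1 CPM in androgenetic replicates 1, 2, 4, 5 and 6. Parthenogenetic libraries spanned 49.3 to 209 CPM with a median of 129.8, and ICSI libraries spanned 90.1 to 202 CPM with a median of 176.8. All androgenetic values lay below all ICSI values, while parthenogenetic replicate 6, at 49.3 CPM, fell among the androgenetic ones. The log2 fold changes of SARS were -1.33 ± 0.44 against ICSI (SE; edgeR adjusted p = 0.0969) and -1.13 ± 0.44 against parthenogenetic morulae (adjusted p = 0.172), and neither passed.

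AARS joins alanine to its tRNA, and loss of its proofreading is known in mice to harm neurons. Its androgenetic libraries had 45.0, 53.5, 62.0, 70.3 and 21.7 CPM for replicates 1, 2, 4, 5 and 6, against 72.3 to 111.3 CPM in ICSI libraries with a median of 95.3. The androgenetic and ICSI ranges did not meet, although the highest androgenetic value and the lowest ICSI value, 70.3 and 72.3 CPM, nearly did. Parthenogenetic AARS ran from 50.2 to 109.6 CPM and overlapped both. The log2 fold change of AARS was -0.87 ± 0.35 against ICSI (SE; edgeR adjusted p = 0.173) and -0.72 ± 0.35 against parthenogenetic morulae (adjusted p = 0.281).

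TARS, SARS and AARS were the 3 of 7 genes whose androgenetic libraries all lay below all ICSI libraries, where 4.15% of all tested rows did so. Against parthenogenetic morulae TARS and CARS were the 2 of 7 with no overlap, where the share of all rows was 2.77%.

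HARS, the histidyl-tRNA synthetase, varied most among androgenetic libraries. Its raw counts there were 114, 467, 367, 11 and 1 in replicates 1, 2, 4, 5 and 6, against 615 to 1406 counts in the parthenogenetic libraries and 868 to 1255 counts in the ICSI ones. The single count of androgenetic replicate 6 has an exact Poisson 95% interval of 0.0253 to 5.57 counts, which covers counting error only. On the CPM scale androgenetic replicate 2, at 28.8, reached into the ICSI range of 27.1 to 46.6 and the parthenogenetic range of 19.2 to 45.6, while the other 4 androgenetic libraries, from 0.0542 to 13.8, lay below both. The SD of HARS on the log2 CPM scale was 3.18 in androgenetic libraries, 0.46 in parthenogenetic and 0.34 in ICSI libraries.

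The log2 fold change of HARS against ICSI, -1.95 ± 0.87 (SE), did not pass in edgeR (adjusted p = 0.221), nor did -1.73 ± 0.87 against parthenogenetic morulae (adjusted p = 0.294). The size of the HARS difference depended on the method: limma voom, which works on log values, put it at -3.75 ± 0.97 against ICSI (adjusted p = 0.0337) and -3.51 ± 0.97 against parthenogenetic morulae (adjusted p = 0.0469). Over all alternatives its adjusted p ran from 0.0337 to 0.349 against ICSI and from 0.0469 to 0.495 against parthenogenetic morulae.

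GARS is the glycyl-tRNA synthetase, and in humans the gene supplies the enzyme of the cytosol and of mitochondria. GARS had 44.5, 36.8, 21.9, 6.47 and 8.67 CPM in androgenetic replicates 1, 2, 4, 5 and 6, against 34.3 to 55.7 CPM among parthenogenetic and 19.8 to 78.7 CPM among ICSI morulae. Replicates 5 and 6 were thus the low androgenetic libraries for GARS, as they were for HARS, and replicates 1 and 2 lay inside both other ranges. The log2 fold changes of -0.98 ± 0.51 against ICSI and -0.97 ± 0.51 against parthenogenetic morulae did not pass (SE; edgeR adjusted p = 0.304 and 0.320).

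CARS, the class I enzyme that joins cysteine to its tRNA, rested on few counts in androgenetic libraries. Androgenetic replicates 1, 2, 4, 5 and 6 held 61, 32, 123, 31 and 104 raw counts of it, which is 2.68, 1.97, 4.63, 1.84 and 5.64 CPM. Parthenogenetic libraries lay between 7.60 and 11.9 CPM, all above the androgenetic ones. ICSI libraries lay between 10.5 and 22.2 CPM except for replicate 5, which at 4.12 CPM fell among the androgenetic values.

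The log2 fold change of CARS was -2.09 ± 0.59 against ICSI (SE; edgeR adjusted p = 0.0576) and -1.52 ± 0.58 against parthenogenetic morulae (adjusted p = 0.162). Without ICSI replicate 5 the first was -2.29 ± 0.54 and passed (edgeR adjusted p = 0.0361), as it did without parthenogenetic replicate 6, androgenetic replicate 4 or androgenetic replicate 6 (-2.28 to -2.10, adjusted p = 0.0392 to 0.0477). DESeq2 gave CARS an adjusted p of 0.00241 against ICSI and 0.0445 against parthenogenetic morulae, where all alternatives gave 0.00241 to 0.212 and 0.0437 to 0.393.

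YARS, the tyrosyl-tRNA synthetase, whose cut fragments are known to act outside the cell as signals in humans, was not called different in androgenetic morulae. Androgenetic replicates 1, 2, 4, 5 and 6 had 61.3, 21.7, 30.9, 41.5 and 21.9 CPM. The parthenogenetic replicates had 26.3, 13.4, 42.6, 26.4 and 28.3 CPM, and ICSI replicates 1 to 5 had 36.4, 39.2, 35.9, 32.3 and 19.5 CPM. The 3 groups overlapped, with the single highest value in androgenetic replicate 1. The log2 fold change of YARS was 0.12 ± 0.41 against ICSI (SE; 95% interval -0.74 to 0.98; edgeR adjusted p = 0.905) and 0.37 ± 0.41 against parthenogenetic morulae (95% interval -0.49 to 1.23; adjusted p = 0.681). These intervals still allow a decrease or an increase of moderate size, and the sign against ICSI turned to -0.18 without androgenetic replicate 1.

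**Figure D2:**
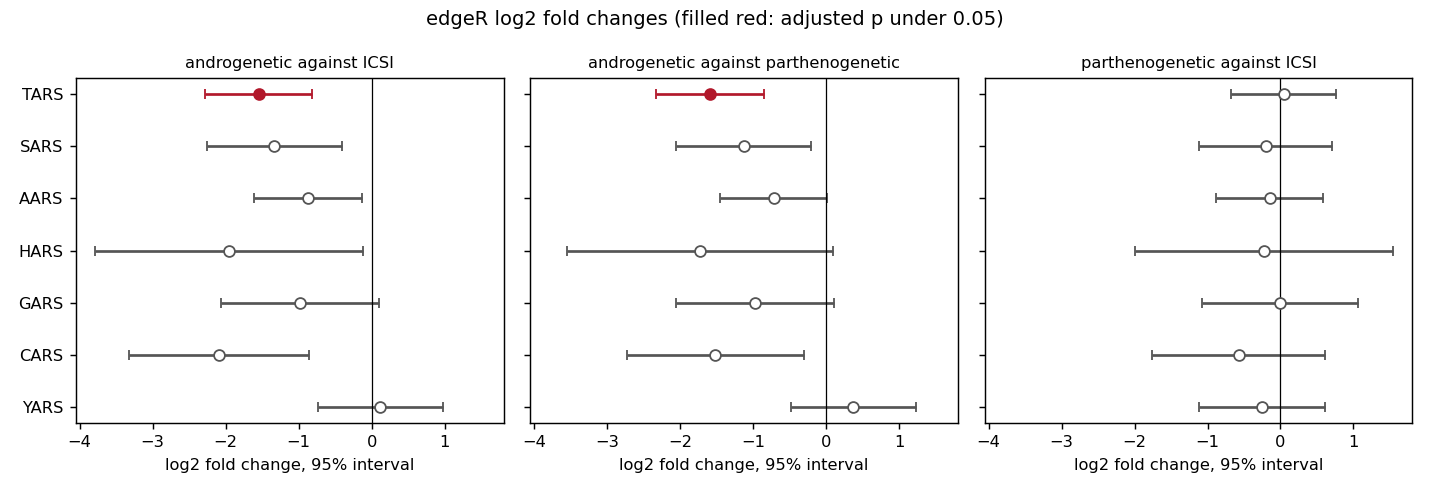
edgeR log2 fold changes with 95% intervals for the 3 comparisons of groups; filled red points have an adjusted p under 0.05 over all tested rows. Of the 7 genes TARS alone is filled, at -1.54 and -1.59 in the comparisons of androgenetic morulae, and all 7 intervals of parthenogenetic against ICSI morulae include 0.

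As a group, 6 of the 7 genes had a negative log2 fold change for androgenetic against ICSI morulae, where 50.2% of all tested rows did, and the median was -1.33 against -0.01 over all rows. Against parthenogenetic morulae 6 of 7 were negative as well, where 50.1% of all rows were, with a median of -1.13 against 0.00. An unadjusted p under 0.05 with a lower level was found for 5 of 7 genes against ICSI, where 9.86% of rows had it, and for 3 of 7 against parthenogenetic morulae, where 9.73% had it. Against ICSI the median of the 7 was -1.20 against 0.13 over all rows with DESeq2 size factors, -1.39 against -0.54 in limma voom and -0.73 against 0.26 with the number of rows detected as a covariate. Against parthenogenetic morulae it was -0.999 against 0.12, -1.26 against -0.45 and -0.74 against 0.05 under the same settings, and 6 of 7 were below 0 in each. The share of all rows below 0 was not counted under these settings, and in limma voom most rows were below 0 as well. The counts for the 2 comparisons share the androgenetic libraries and do not support each other, and the genes were chosen with results of these data known.

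Parthenogenetic morulae gave no called difference from ICSI morulae in any of the 7 genes. None passed in edgeR (0 of 7, and 0 at an unadjusted p under 0.05), in DESeq2 (0) or in limma voom (0), while 0.0733% of all rows were lower by edgeR's call and 1.86% had an unadjusted p under 0.05. The groups overlapped in all 7 genes (0 of 7 without overlap, where 0.501% of rows lay lower without overlap), and 6 of 7 log2 fold changes were below 0, where 48.8% of all rows were. The log2 fold changes lay between -0.58 for CARS (95% interval -1.76 to 0.61) and 0.04 for TARS (95% interval -0.67 to 0.76), with a median of -0.20 against 0.02 over all rows. HARS had -0.23 ± 0.84 (SE) in the fit that shares 1 estimate of the spread with the androgenetic libraries, and -0.23 ± 0.31 with the 2 groups fitted alone, and it passed in neither. Androgenetic morulae had the lowest mean level of the 3 groups for 6 genes, and parthenogenetic morulae had it for YARS.

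Seen by library, the summed level of the 7 genes was 296, 233, 259, 227 and 106 CPM in androgenetic replicates 1, 2, 4, 5 and 6. It was 424, 498, 596, 439 and 318 CPM in parthenogenetic replicates 1, 2, 3, 5 and 6, and 578, 588, 430, 551 and 332 CPM in ICSI replicates 1 to 5. All androgenetic sums lay below all sums of the other groups. Androgenetic replicate 6 was the lowest of all 15 libraries for 4 of the 7 genes and replicate 5 for 2, and ICSI replicate 5 was the lowest of its group for 6 of 7.

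In each group the library with the fewest rows detected also had the lowest sum. Androgenetic replicate 4, with 18633 rows detected, summed to 259 CPM, below the 424 to 596 CPM of parthenogenetic replicates 1, 2, 3 and 5 with 18111 to 18899 rows. That is a single library, and the other androgenetic libraries had 13564 to 17468 rows. The part of the number of rows detected in the sums was not tested. With the number of rows detected as a covariate, TARS had -1.13 ± 0.33 against ICSI (edgeR adjusted p = 0.125) and -1.29 ± 0.32 against parthenogenetic morulae (adjusted p = 0.0617), and no gene passed. Of all 16375 rows, 0 were then called lower against ICSI and 56 against parthenogenetic morulae. Without the library with the fewest rows detected in each group, TARS (-1.46 ± 0.31, adjusted p = 0.0108), CARS (-2.51 ± 0.49, adjusted p = 0.00859) and SARS (-1.15 ± 0.32, adjusted p = 0.0357) passed against ICSI in edgeR. More rows of the whole table passed there too: 640 of 16871 were called lower against ICSI, where the fit of all libraries called 173 of 16375. Over all alternatives the adjusted p against ICSI ran from 0.00104 to 0.125 for TARS and from 0.0357 to 0.295 for SARS.

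**Figure D3:**
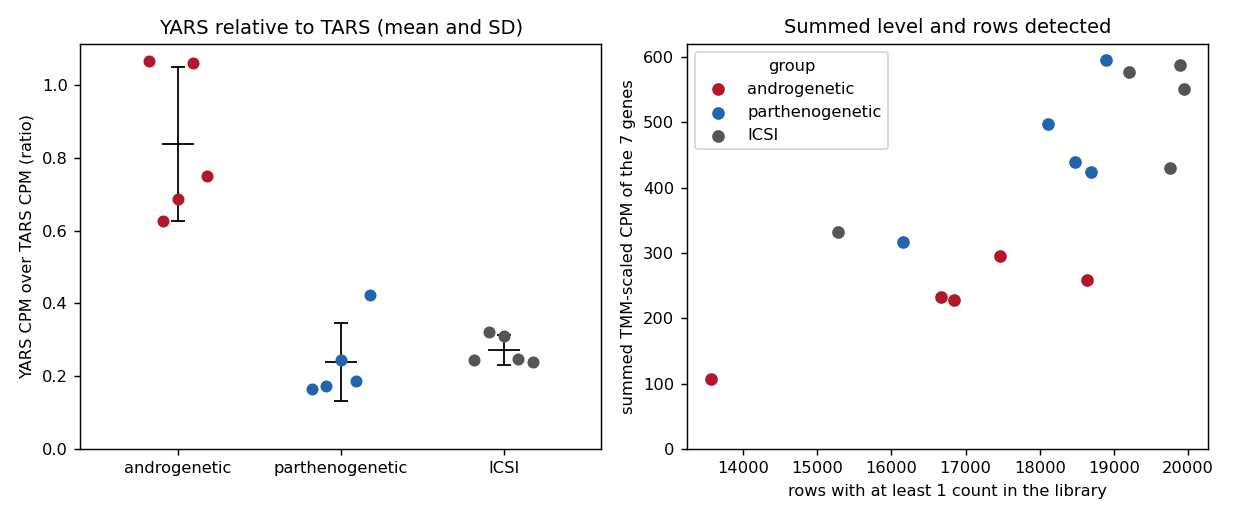
Left, YARS CPM divided by TARS CPM in each library, with the mean and SD of 5 libraries; right, the summed TMM-scaled CPM of the 7 genes against the number of rows with a count, 1 point per library. The androgenetic ratios lie between 0.626 and 1.07, above all others, and the androgenetic sums lie between 106 and 296 CPM, below all others.

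Because a ratio of genes within a library does not depend on the scaling factor, YARS was also set against TARS, a pair chosen after its values had been seen. The YARS to TARS ratio, which takes no account of gene length, was 0.838 ± 0.211 for androgenetic, 0.238 ± 0.108 for parthenogenetic and 0.272 ± 0.0401 for ICSI morulae (SD, n = 5 each). It ran between 0.626 and 1.07 among androgenetic libraries, between 0.166 and 0.422 among parthenogenetic ones and between 0.238 and 0.320 among ICSI ones, and the androgenetic values overlapped neither group. Of the 9472 rows with a count in all libraries, 3.58% had a YARS to row ratio that was likewise higher in every androgenetic than in every ICSI library, and 3.33% against parthenogenetic libraries. As the pair was picked for this contrast no test is given. YARS made up 16.2% ± 5.23 of the summed CPM of the 7 genes in androgenetic libraries, 6.19% ± 2.27 in parthenogenetic and 6.60% ± 1.03 in ICSI libraries.

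Within groups the genes differed in how steady they were. The biological coefficient of variation that edgeR estimated over all 15 libraries was 0.424 for TARS, 0.432 for AARS, 0.494 for YARS and 0.510 for SARS, 0.584 for GARS, 0.640 for CARS and 0.899 for HARS, where the median of all tested rows was 0.945. TARS and AARS were thus steadier than most rows: 2.45% and 2.88% of rows had a lower value. They were also more abundant than most, as 89.6% and 87.5% of rows had a lower mean CPM. Their spread was not compared with that of rows of like abundance. Across the 15 libraries, the Spearman correlation of log2 CPM lay between 0.38 and 0.74 for the pairs without YARS and between -0.04 and 0.24 for the pairs with YARS. The highest was 0.74 for SARS with TARS, and the libraries share group and depth, so these are descriptions without a test.

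Among other synthetases that are free in the cytosol, NARS, WARS and VARS had rows under a symbol and FARSA and FARSB were not analysed here. All 3 had a negative log2 fold change for androgenetic against ICSI morulae, at -0.48 ± 0.32 for the asparaginyl enzyme gene NARS, -1.26 ± 0.58 for the tryptophanyl enzyme gene WARS and -0.22 ± 0.58 for the valyl enzyme gene VARS, and none passed in edgeR (SE; adjusted p = 0.443, 0.235 and 0.879). WARS averaged 25.2 ± 17.6 CPM among androgenetic, 59.9 ± 30.1 CPM among parthenogenetic and 60.2 ± 10.9 CPM among ICSI morulae (SD, n = 5 each). Its androgenetic and ICSI libraries did not overlap (1 of 3 genes, where 4.15% of all tested rows lay lower without overlap).

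The 8 tested synthetases of the multisynthetase complex had 6 negative and 2 positive log2 fold changes for androgenetic against ICSI morulae, with a median of -1.13. Over all rows 50.2% were negative. None passed in edgeR (0 of 8, where 1.06% of all rows were called lower), 5 of 8 had an unadjusted p under 0.05 with a lower level, where 9.86% of rows had it, and the lowest p-values were those of the lysyl enzyme gene KARS, at -1.41 ± 0.42 (SE; adjusted p = 0.0701), and the arginyl enzyme gene RARS, at -2.02 ± 0.61 (adjusted p = 0.0729). MARS, at 0.80 ± 0.43 (edgeR adjusted p = 0.324), and QARS, at 0.18 ± 0.47 (adjusted p = 0.875), were the positive ones there, as YARS was among the free-standing genes. EPRS had -1.38 ± 0.44 (adjusted p = 0.0845) and was the complex member with no overlap between androgenetic and ICSI libraries. That is 1 of 8, where 4.15% of all tested rows lay lower without overlap. The summed CPM of the 7 free-standing genes divided by that of the complex genes was 0.458 ± 0.168 for androgenetic, 0.480 ± 0.117 for parthenogenetic and 0.459 ± 0.170 for ICSI morulae (SD, n = 5 each), with overlapping ranges. Whether the 2 sets of genes differ was not tested.

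**Figure D4:**
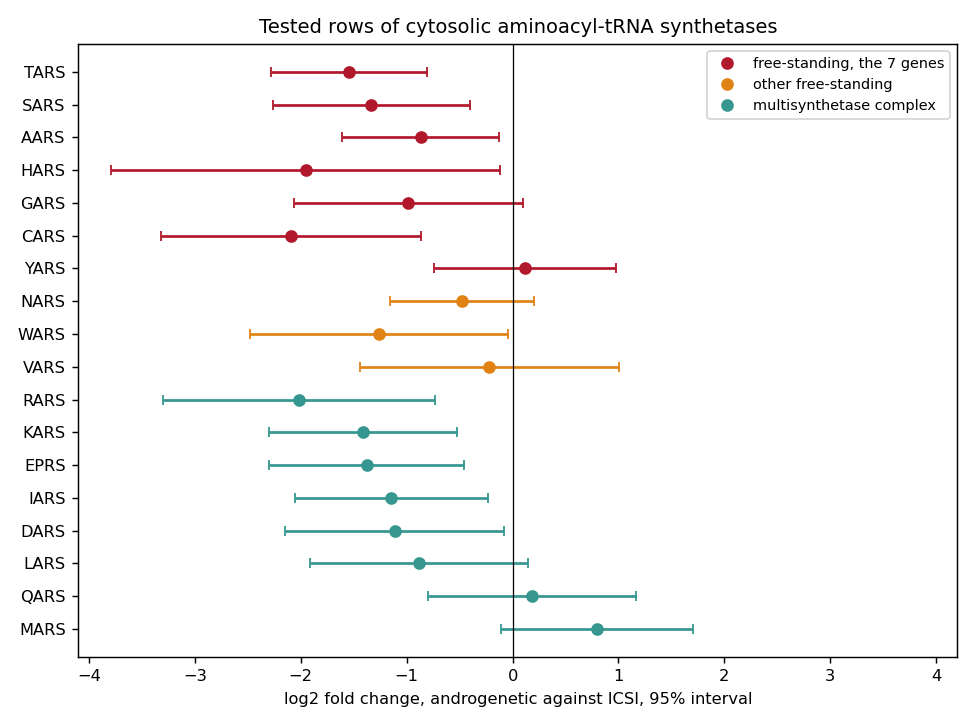
edgeR log2 fold changes of androgenetic against ICSI morulae with 95% intervals for the tested cytosolic synthetases, coloured by set. Of the 18 genes, YARS, QARS and MARS lie above 0, at 0.12, 0.18 and 0.80, and the other 15 lie below.

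Of 36 genes known to respond to amino acid shortage, such as ATF4 and its targets, CEBPG alone had a row under its symbol. CEBPG, a partner of ATF4 on DNA, averaged 36.2 ± 26.3 CPM among androgenetic, 13.4 ± 4.16 CPM among parthenogenetic and 22.5 ± 8.80 CPM among ICSI morulae (SD, n = 5 each). Androgenetic replicate 6 had 80.6 CPM, while the other androgenetic libraries ran from 13.9 to 38.0 CPM and ICSI libraries from 9.62 to 32.9 CPM. The log2 fold changes of CEBPG, 0.68 ± 0.49 against ICSI and 1.44 ± 0.50 against parthenogenetic morulae, did not pass (SE; edgeR adjusted p = 0.477 and 0.129). TARSL2, a second threonyl-tRNA synthetase gene, fell below the expression filter, with at most 17 counts in an androgenetic, 1 in a parthenogenetic and 3 in an ICSI library. The mitochondrial synthetases (0 of 20) and the translation factors (0 of 16) had no row under a symbol and were not analysed here.

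The rows most like the genes across the 15 libraries were sought among 275 named rows with a mean of at least 5 CPM. For the mean of the 7 standardised levels they were the zinc finger gene ZNF792 (Spearman correlation 0.84), the septin gene SEPT2 (0.81), LOC530102 (0.81), which RefSeq names COL6A6, a collagen gene, ASNA1 (0.80), whose product delivers tail-anchored proteins to membranes, and the lipoprotein receptor gene APOBR (0.79). For TARS alone they were SLC9C2 (0.88), of the sodium/proton exchanger family, ASNA1 (0.85), COL6A6 (0.85), the selenoprotein gene SELENOW (0.85) and the kinesin-binding protein gene KIF1BP (0.84). SLC9C2 averaged 13.8 CPM among androgenetic, 67.2 CPM among parthenogenetic and 60.2 CPM among ICSI morulae. ZNF792 averaged 3.22 CPM among androgenetic, 11.4 CPM among parthenogenetic and 10.9 CPM among ICSI morulae. Each of these rows had its lowest mean in androgenetic morulae. They were chosen for likeness to levels that were lowest there, so that follows largely from the choice. The libraries share group and depth, so no test is attached to the correlations.

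A near-identical row, differing by at most 2% or 3 counts in each library, stood beside 4 of the 7 genes. GARS had the same count as ENSBTAG00000018972 in all 15 libraries. HARS had the same count as ENSBTAG00000018847 in 14 of 15, and YARS differed from ENSBTAG00000018065 by at most 3 counts. TARS differed from ENSBTAG00000014261 by at most 13 counts, and that identifier had log2 fold changes of -1.54 ± 0.35 and -1.59 ± 0.35 against ICSI and parthenogenetic morulae (edgeR adjusted p = 0.0360 and 0.0334). Such near-copies under an Ensembl identifier existed for 16.7% of the 562 tested rows named by a symbol, and they add no independent evidence. The nearest row to CARS, ENSBTAG00000010777, differed from it by at most 21 counts and had -2.13 ± 0.60 against ICSI (adjusted p = 0.0582). The nearest row to SARS, ENSBTAG00000012962, differed by at most 233 counts and had -1.37 ± 0.44 (adjusted p = 0.0911). For AARS no row came close: the nearest, ENSBTAG00000012878, differed by up to 870 counts, and for parthenogenetic against ICSI morulae it had 0.09 ± 0.37, where AARS had -0.15 ± 0.35.

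In the RefSeq annotation of ARS-UCD2.0, used here for names and neighbours alone, AARS1 overlaps DDX19B, YARS1 overlaps S100PBP and TARS1 overlaps the locus LOC132343241. HARS1 lies next to HARS2, the gene of the mitochondrial histidyl enzyme, and CARS1 next to NAP1L4. The library kit is labelled as stranded, but since the strand setting of the counting is not given in the sources used here, reads of overlapping genes cannot be told apart.

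**Figure D5:**
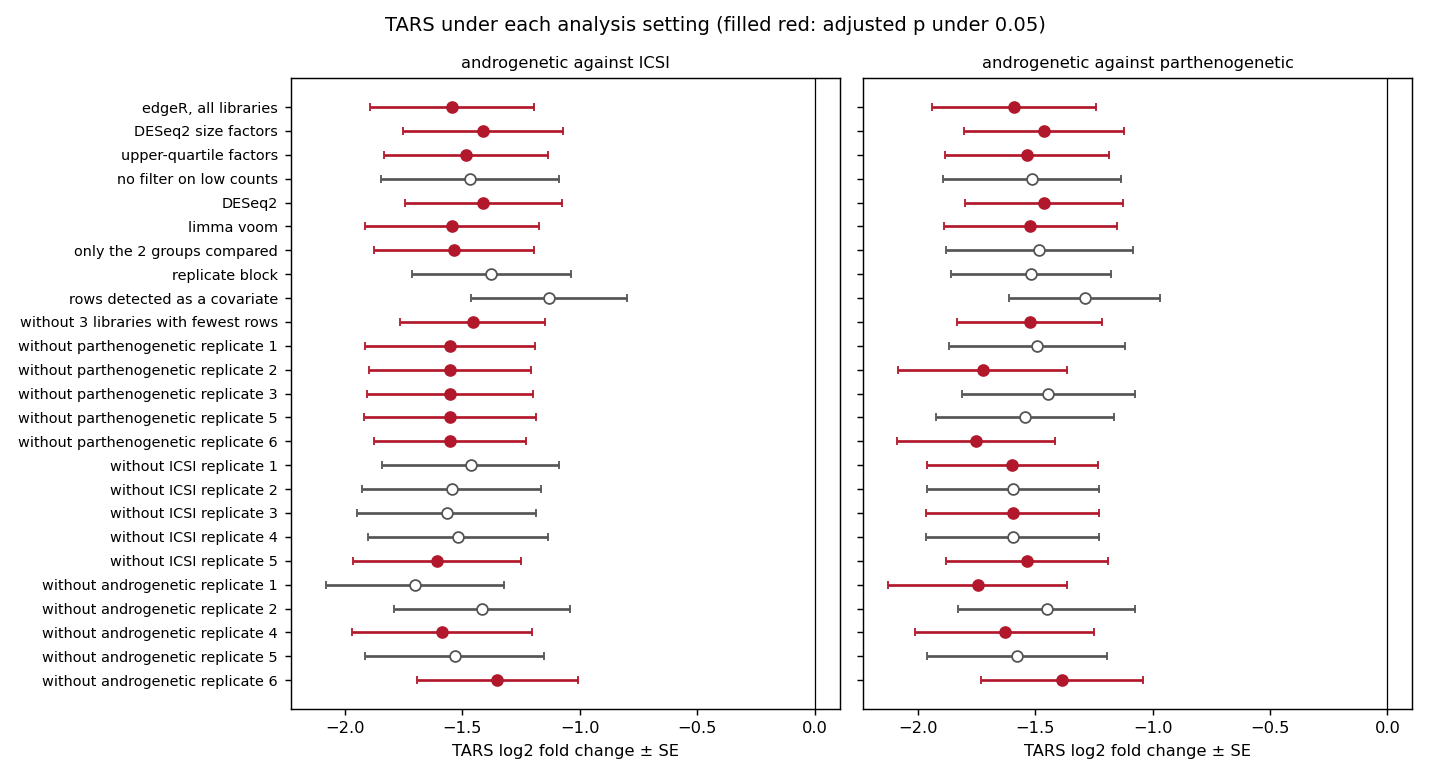
TARS log2 fold change ± SE for androgenetic against ICSI (left) and against parthenogenetic morulae (right) under each analysis setting; filled red points have an adjusted p under 0.05. All values lie between -1.75 and -1.13, so the direction held under each of the 24 alternatives, while 10 on the left and 11 on the right lost the call.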

How the data were processed

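The authors deposited a table of raw counts per row and library, as whole numbers without normalization. Trim Galore, cutadapt, STAR and featureCounts are named in the submitters' processing notes; the build, annotation and strand setting of the counting are not given in the sources used here. SMART-Seq HT and NextEra XT Stranded mRNA kits were used, per the labels' protocols. The test was that of edgeR 4.0.16 under R 4.3.3: filterByExpr by group (16375 of 31999 rows, holding 99.9% of counts), TMM factors, 1 coefficient per group over all 15 libraries, glmQLFTest, and Benjamini-Hochberg adjustment over all tested rows. Calls needed an adjusted p under 0.05. The standard error is the size of the log2 fold change over the square root of F. The common biological coefficient of variation was 1.02.

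The 7 genes are named whatever their result; of the fixed lists, called genes are named, or else those of lowest p, and other genes were chosen after their values were seen. The members and lists were chosen with earlier results of these data known. Alternatives were other scaling factors, no filter, DESeq2 1.42.0, limma voom 3.58.1, 2 groups alone, a replicate block, rows detected as a covariate, and libraries left out. No identical libraries were found. Nothing says that replicates came from separate embryos or animals, and p-values then describe no more than the spread among these libraries, which may be technical.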

Additional observations from a re-analysis of the deposited data

Results flagged for a closer look

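TARS differed between the haploid groups in its departure from ICSI. For androgenetic minus parthenogenetic morulae, which is the test of that difference, the log2 fold change was -1.59 ± 0.35 (SE; edgeR adjusted p = 0.0334, with a range of 6.69e-04 to 0.130 over the alternatives). All 5 androgenetic libraries lay below all 5 parthenogenetic libraries. The 7 genes in 3 groups gave 21 sets of 5 libraries, and in 0 of them did a single library stand apart by Dixon's criterion on the CPM scale, where chance flags about 1 in 20.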

How the results depend on the processing

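Of 504 values of single genes under 24 alternatives, 448 kept direction and side of the threshold, 21 lost the call (all TARS), 11 gained one (CARS, HARS or SARS) and 24 turned sign. Numbers of the 7 genes called against ICSI and against parthenogenetic morulae, 1 and 1 in edgeR, were 0 and 0 without a filter, 2 and 2 in DESeq2, 2 and 2 in limma voom, 0 and 0 with the covariate, 3 and 2 without the 3 libraries with fewest rows, and 0 against parthenogenetic morulae with 2 groups alone; leaving out 1 library gave 0 to 2 and 0 to 1. Rows called, 461 for androgenetic against ICSI, 12 for parthenogenetic against ICSI and 287 for androgenetic against parthenogenetic morulae, were 1987, 39 and 1678 in DESeq2, 876 and 703 for the comparisons of androgenetic morulae in limma voom, 27 for the last with 2 groups alone, 0 and 154 for those comparisons with the covariate, 1630, 6 and 1874 without the 3 libraries, and 0 to 1077, 3 to 14 and 14 to 903 leaving out 1 library. Rows called lower for androgenetic morulae, against ICSI and against parthenogenetic morulae, were 173 and 137 of 16375 in edgeR. They were 735 and 688 of 16375 in DESeq2, 445 and 347 in limma voom, and 0 and 56 with the covariate. Without a filter they were 77 and 62 of 25261, and without the 3 libraries 640 and 803 of 16871. With 2 groups alone, 5 of 14196 were lower against parthenogenetic morulae. Where edgeR called 0 rows, 3037 had an unadjusted p under 0.05 with the covariate and 2523 with the replicate block. The replicate block gave 0, 3 and 88 rows, 0 and 0 of the 7 genes, and TARS at -1.38 and -1.52 (adjusted p = 0.119 and 0.0625); the median of the 7 was then -1.11 against -0.26 over all rows against ICSI and -1.28 against -0.35 against parthenogenetic morulae. Same-numbered libraries correlated at -0.045 to 0.092 in their deviations, which shows no clear pairing but cannot exclude a shared batch. Androgenetic replicates 2 and 4 and parthenogenetic replicate 2 were most like their own number among ICSI libraries. No other library was most like its own number in a comparison. Signs that turned belonged to small values. For parthenogenetic against ICSI morulae, GARS (-0.01) was 0.014 with DESeq2 size factors and in DESeq2, 0.012 with upper-quartile factors, 0.013 without a filter, 0.091 in limma voom, 0.0020 with 2 groups alone, 0.27 with the block and 0.32 with the covariate, TARS was -0.024 in limma voom, and AARS, HARS and SARS were 0.020, 0.15 and 0.17 with the block. Leaving out 1 library there gave -0.20 to 0.26 for GARS, -0.11 to 0.20 for TARS and -0.43 to 0.0071 for SARS; YARS for androgenetic against ICSI morulae gave -0.18 to 0.35. The causes were not tested. HARS had 1 count in androgenetic replicate 6, where counting error is large. The lowest count of CARS was 31, in androgenetic replicate 5.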
